A study of Mus musculus with 8 samples.

Results

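The 31 voltage-gated sodium and calcium channel genes of the deposited table were described across the sorted cell types of the newborn mouse inner ear. They were taken by symbol, as the genes for sodium channel pore-forming and beta subunits (Scn) and for calcium channel alpha-1, alpha2delta, beta and gamma subunits (Cacn), and they are 31 of the 15275 genes listed. The 12 Scn genes comprise 8 pore-forming and 4 beta subunit genes, and the 19 Cacn genes comprise 7 pore-forming, 3 alpha2delta, 4 beta and 5 gamma subunit genes. Messenger RNA was sequenced from cells sorted from the cochlea and from the vestibular organs of newborn ICR mice, at postnatal day 0 by the labels and with no genetic change or treatment named. Antibodies to CD326, CD49f and CD34 separated epithelial cells, neurons, mesenchyme and vascular endothelium, which gave 8 libraries, 1 for each cell type in each organ. The sample titles call the epithelial libraries sensory. How many animals a library holds is not named, a sorted fraction is only as pure as its gate, and no 2 libraries share both cell type and organ.

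Voltage-gated sodium channels open on depolarisation and carry the rising phase of the action potential, and their beta subunits are single-span membrane proteins that tune gating and trafficking. Voltage-gated calcium channels couple depolarisation to calcium entry and so to transmitter release. In hair cells, the mechanosensory cells of the ear, release at ribbon synapses is driven mainly by the L-type channel whose pore is Cacna1d, and immature inner hair cells fire calcium action potentials before hearing begins. The primary neurons that hair cells contact fire sodium action potentials that travel along myelinated fibres.

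The pore sequence that separates the 2 kinds of channel is short, and the stretches below are shown because they place the main pore genes described later in their ion selectivity classes. Each is 27 coding bases of a GENCODE vM21 transcript around the codon of the ion-selectivity filter in the third repeat of the channel, with that codon in capitals. Coordinates are GRCm38, and where the stretch crosses an exon junction they also span the intron.
Scn11a, chr9:119768379-119769763, minus strand, across a junction: gtggcgacctatAAGggctggctggac
Scn8a, chr15:101029860-101031733, plus strand, across a junction: gtggcaaccttcAAAggctggatggac
Scn7a, chr2:66683297-66684017, minus strand, across a junction: gtggcaacatttAATggatggatcagt
Cacna1d, chr14:30099243-30100722, minus strand, across a junction: gtctcaacttttGAGggctggcccgcg
Cacna1e, chr1:154444002-154444897, minus strand, across a junction: gtctctacagggGAAggatggcctcag
Cacna1g, chr11:94426459-94426485, minus strand, within 1 exon: ctggcctccaagGATggctgggttgac
Cacna1h, chr17:25383496-25383522, minus strand, within 1 exon: ctgtcatccaagGATggctgggtaaac

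The codon was lysine in 7 of the 8 sodium channel pore genes, the residue that makes these pores select sodium. It was asparagine in Scn7a, an atypical member known as a sodium-level sensor of glia and other cells that is not a conventional voltage-gated channel. It was glutamate in all 5 genes of the Cav1 and Cav2 subfamilies, and aspartate in both genes of the Cav3 subfamily, the T-type channels that open near rest.

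Each deposited value is a signal for 1 gene, which the authors had brought to 1 set of sorted values shared by all 8 libraries, with a floor of 20 (2058 genes in each library) and a median of 374.4. Sequencing depth is therefore unknown, no counting error can be given, and a gene at 20 is only listed at the floor. The sources used here do not give whether the signal was divided by gene length, so each gene was compared across libraries and never with another gene. In sorted bulk RNA, fewer cells of a type and less RNA per cell cannot be told apart.

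Marker genes were checked before the channels were compared. The epithelial libraries held the highest value of 17 of 18 hair cell genes and 16 of 16 general epithelial genes, and the endothelial libraries that of 15 of 15 endothelial genes. The neuron-labelled libraries held the highest value of 13 of 14 glial and Schwann cell genes (summed signal 199201 in cochlear and 221453 in vestibular libraries) but of only 13 of 24 neuronal genes. Tubb3, which encodes a neuronal tubulin, had 469 in the library labelled cochlear neurons and 36.9 in the library labelled vestibular neurons. In the vestibular one 8 of the 24 neuronal genes were at the floor, among them Nefh, Prph, Elavl4, Pou4f1, Rbfox3 and both vesicular glutamate transporter genes Slc17a6 and Slc17a7, while 1 was at the floor in the cochlear one. Of the 2 neuron-labelled libraries, the cochlear one had 6598 for the pericyte gene Rgs5 and the vestibular one 147260, and the summed pericyte and smooth muscle signal was 15232 in the cochlear and 164332 in the vestibular one. The other 16 were above the floor in the vestibular one, and 10 of the 24 exceeded 100 there, against 19 in the cochlear one. Of the 24, 17 were higher in the cochlear library and 6 in the vestibular one. The 6 were Ntrk2 (1926 in cochlear, 3051 in vestibular), Ntrk3 (203 and 463), Map2 (1559 and 1807), Isl1, Syt1 and Gap43. The first 3 encode 2 neurotrophin receptors and a microtubule protein. They were not particular to neuron-labelled cells, as cochlear and vestibular mesenchyme had 3130 and 3359 for Ntrk2, 453 and 735.5 for Ntrk3, and 2582 and 1635 for Map2. Syt1 was also high in mesenchyme (2989 and 1404), while Isl1 (46.9 and 20) and Gap43 (313 and 107) were lower there. Summed neuronal signal also overlapped between cell types, with 12109 and 8267 in cochlear and vestibular epithelial libraries, 12752 and 8133 in the neuron-labelled ones, 12472 and 7987 in mesenchyme, and 1500 and 2717 in vascular endothelium. The vestibular endothelial library had a Spearman correlation over all genes of 0.8875 with vestibular neurons and of 0.877 with cochlear endothelium.

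**Figure D1:**
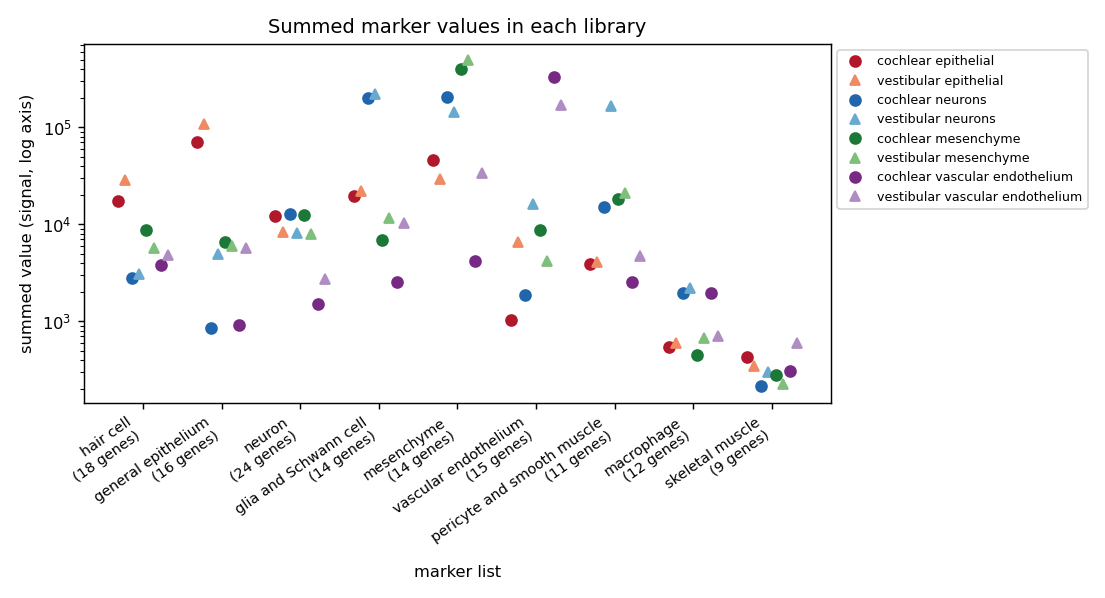
Summed deposited signal (log axis) of 9 marker lists in each of the 8 libraries, with circles for cochlear and triangles for vestibular libraries. Hair cell, epithelial, glial and endothelial sums separate the fractions, neuronal sums do not separate epithelial, neuron-labelled and mesenchymal libraries, and the pericyte sum of the library labelled vestibular neurons stands at 164332.

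The highest values of the channel genes fell in all 4 cell types. Of the 31 genes, 7 had their highest value in an epithelial library, 9 in a neuron-labelled one, 12 in mesenchyme and 3 in vascular endothelium. Where all genes had their highest value was not counted, so these numbers describe the 31 genes alone. The highest values of Scn4a (23.4), Cacng5 (27) and Cacng8 (30.6) lay near the floor. The number of all genes reaching 100 is equal in every library, because the sorted values are shared, but was not counted. A value of at least 100 was reached by 13 and 15 genes in cochlear and vestibular epithelial libraries, by 17 and 13 in the neuron-labelled ones, by 18 and 15 in mesenchyme and by 5 and 9 in vascular endothelium. Both epithelial libraries lay above both neuron-labelled libraries for 10 genes (32.3% of the members, against 25.4% of all genes) and below both for 8 (25.8%, against 29.5% of all genes), and the values overlapped for 13. These shares lie near those of all genes. The 10 genes include all 4 calcium channel beta genes. Of the 8 sodium channel pore genes 4 were among those below, 2 among those above, and 2 overlapped. Some orders rest on small gaps, as for Cacnb4 (59.3 in vestibular epithelial, 58.4 in cochlear neuron-labelled cells). For Scn1a both epithelial libraries had 20 and the vestibular neuron-labelled one 21.3.

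**Figure D2:**
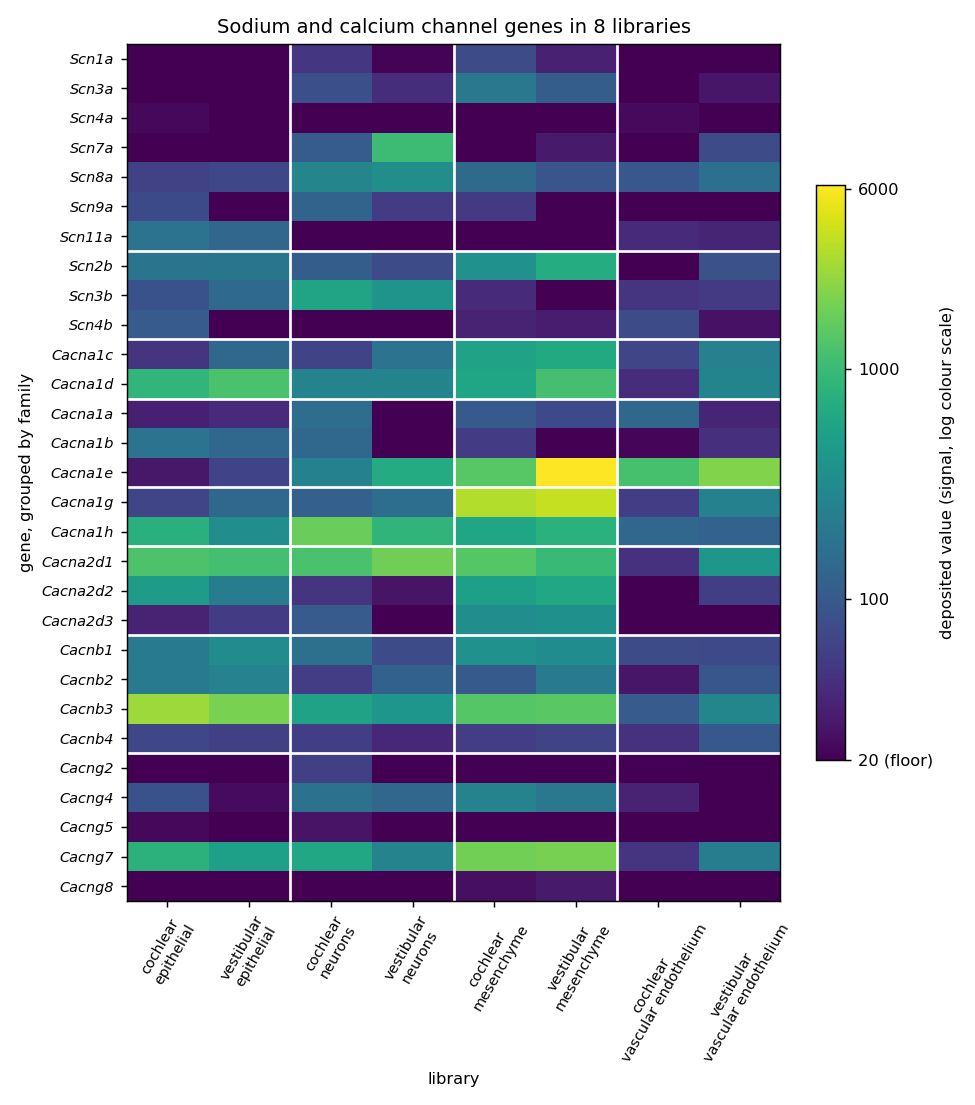
Deposited signal (log colour scale from the floor of 20) of 29 of the 31 channel genes, grouped by subunit family, in the 8 libraries. Cacna1d and the Cacnb1 to Cacnb3 rows are brighter in epithelial than in neuron-labelled libraries, Scn8a and Scn3b the reverse, and Cacna1e and Cacna1g are brightest in mesenchyme.

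Epithelial and neuron-labelled libraries were then compared in a limma model of cell type and organ fitted to all genes, with Benjamini-Hochberg adjustment. Scn11a was higher in epithelial cells and Cacna1e lower, and the other 29 genes did not pass the threshold of 0.05. That is 1 gene in each direction, where 5.23% of all genes tested were called higher and 5% lower, 10.2% in either direction. At an unadjusted p under 0.05 there were 6 genes in each direction. The share of all genes at that unadjusted threshold was not counted, so these numbers have no background to be read against. The median log2 difference of the 31 genes was -0.06, against -0.006 for all genes. The organ term removes any difference between the 2 organs that all 4 cell types share. With 3 residual degrees of freedom, the p-values thus rest on how far that difference varied among the 4 types.

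**Figure D3:**
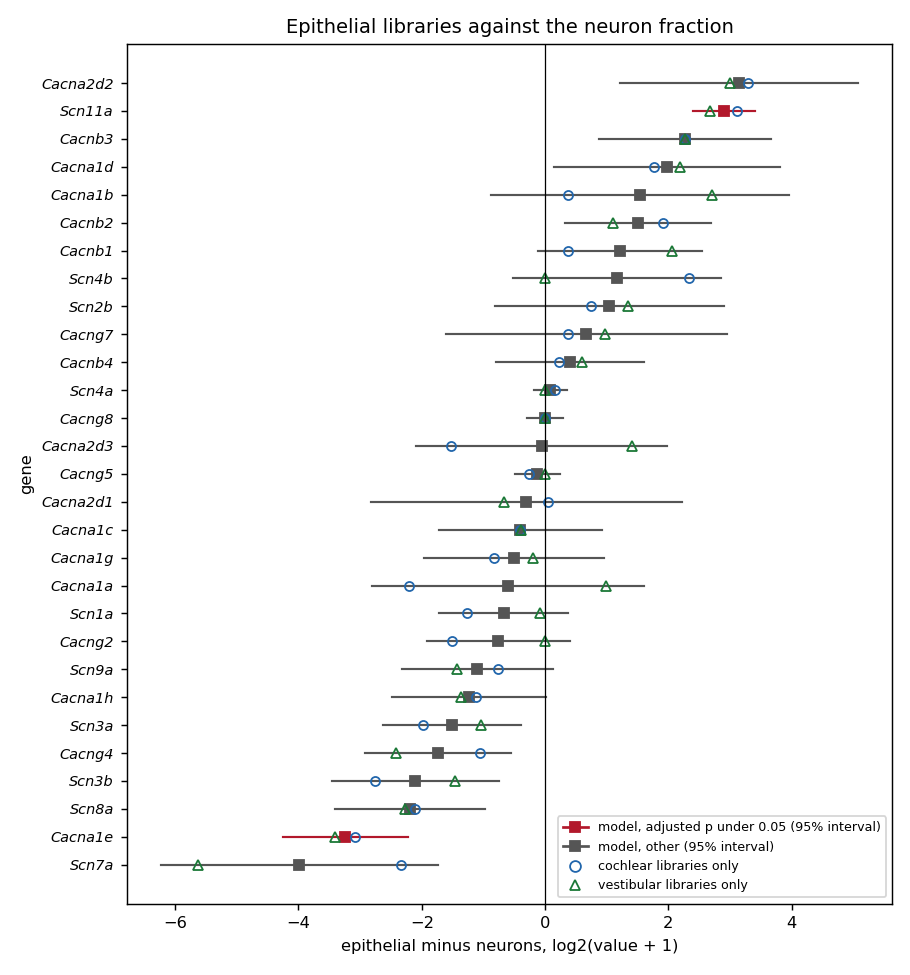
Log2 difference of epithelial minus neuron-labelled libraries for 29 of the 31 genes, with the model estimate (square, 95% interval) and the difference within the cochlear (circle) and vestibular (triangle) libraries alone. Scn11a at 2.90 and Cacna1e at -3.24 are the 2 genes with an adjusted p under 0.05, and Scn7a has the widest gap between organs at the low end.

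Scn11a (ENSMUSG00000034115, chr9:119753759-119825456) encodes a persistent, slowly inactivating sodium channel best known from nociceptive sensory neurons. It had 180.5 and 134 in cochlear and vestibular epithelial cells, against the floor of 20 in both neuron-labelled libraries and both mesenchyme libraries and 40.9 and 35.9 in cochlear and vestibular endothelium. The epithelial values exceeded every other library, so that Scn11a was at least 9.03-fold higher in epithelial than in neuron-labelled cells of the cochlea and at least 6.68-fold higher in the vestibular organs, the floor being the bound. The fitted log2 difference was 2.90 ± 0.19 (SE, 2 libraries each, limma adjusted p = 0.0096). Scn11a was also higher in epithelial cells than in the mean of mesenchyme and endothelium, by 2.44 ± 0.17 (adjusted p = 0.0076). Both SEs come from a residual pooled over all 8 libraries, of which 4 stood at the floor for Scn11a. Values at the floor hide any spread, so these SEs and p-values may be too small. Without the library labelled vestibular neurons the first difference was 2.998 with an adjusted p of 0.066, and without the cochlear one 2.79 with an adjusted p of 0.075, fits in which no gene of the table was called for that comparison. The second difference stayed called in all 8 fits that left out 1 library.

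Among the sodium channel beta subunit genes, Scn2b, an auxiliary subunit, had both epithelial libraries above both neuron-labelled ones without passing the test. It had 185 and 188.5 in cochlear and vestibular epithelial cells, 110 and 73.8 in neuron-labelled cells, and 20 and 82.3 in endothelium, and was highest in mesenchyme at 367 and 706. The difference of epithelial minus neuron-labelled cells was 1.04 ± 0.71 on the log2 scale (adjusted p = 0.43), within the spread between libraries.

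Scn8a had both epithelial libraries below both neuron-labelled ones. It encodes the channel of nodes of Ranvier and the axon initial segment. Its values were 62.6 and 69.4 in cochlear and vestibular epithelial cells, against 273.5 and 340 in neuron-labelled cells, a ratio of 4.37 in the cochlea and 4.90 in the vestibular organs with the neuron-labelled library higher. The fitted log2 difference of epithelial minus neuron-labelled was -2.19 ± 0.46 (adjusted p = 0.056), so it did not pass the threshold over all genes. Mesenchyme (145 and 90.5) and endothelium (94.3 and 163) lay between the epithelial and the neuron-labelled values without overlapping them.

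Scn3b encodes a beta subunit of developing and mature neurons. It had 84.9 and 141.5 in epithelial cells, 577.5 and 391 in neuron-labelled cells, 40.8 and 20 in mesenchyme, and 47.6 and 52.6 in endothelium. Neuron-labelled cells exceeded the mean of mesenchyme and endothelium by 3.61 ± 0.45 on the log2 scale, 12.2-fold (limma adjusted p = 0.038), and Scn3b was the only one of the 31 genes called higher there, where 1.83% of all genes were. The difference of epithelial minus neuron-labelled cells was -2.11 ± 0.51 (adjusted p = 0.078). Without the library labelled vestibular neurons the comparison with mesenchyme and endothelium gave 3.88 with an adjusted p of 0.16, and the call was lost in all 8 fits that left out 1 library (adjusted p 0.074 to 0.29).

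Scn7a had the floor value in both epithelial libraries, and 105.5 and 1035 in cochlear and vestibular neuron-labelled cells. Mesenchyme had 20 and 30.3, and endothelium 20 and 76.3. Epithelial cells were thus at least 5.28-fold lower in the cochlea and at least 51.8-fold lower in the vestibular organs, with an adjusted p of 0.057. The high value stood in the library labelled vestibular neurons, where the pericyte sum was also high and 8 of 24 neuronal markers were at the floor. The endothelial sum was higher there too (16389, against 1850 in the library labelled cochlear neurons), as was the general epithelial sum (4969 against 853). The mesenchyme sum was lower (144490 against 206851), and the glial sums of the 2 neuron-labelled libraries were similar. The part of any of these cell types in the Scn7a signal was not tested.

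**Figure D4:**
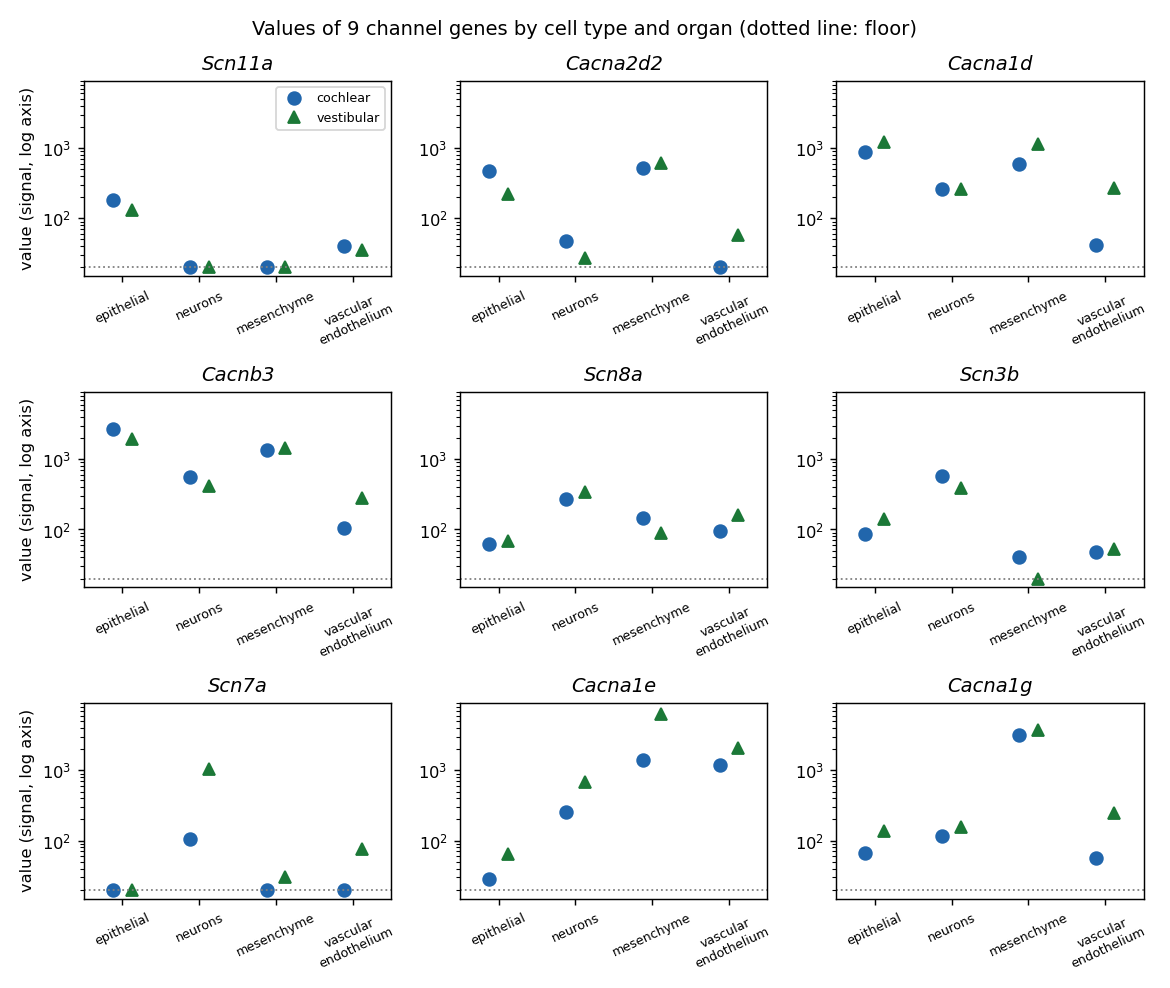
Deposited signal (log axis, dotted line at the floor of 20) of 9 channel genes in cochlear (circles) and vestibular (triangles) libraries of the 4 cell types. Scn11a is above the floor in epithelial cells and weakly in endothelium, Scn3b and Scn7a are highest in neuron-labelled cells, and Cacna1e is lowest in epithelial cells (28.8 and 63.6) and highest in mesenchyme (1407 and 6269).

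The remaining sodium channel genes were low. Scn3a, a channel of embryonic brain, was at the floor in both epithelial libraries, had 81.5 and 42.4 in neuron-labelled cells, and was highest in mesenchyme at 202 and 109. Scn9a, a channel of peripheral sensory and sympathetic neurons, had 73 and 20 in epithelial cells and 125 and 55.4 in neuron-labelled cells, and its epithelial and neuron-labelled values overlapped. Scn1a, a channel of brain and large sensory neurons, was at the floor in epithelial cells and reached 49.3 in cochlear and 21.3 in vestibular neuron-labelled cells and 76.5 in cochlear mesenchyme. Scn4b had 105 in cochlear epithelial cells and the floor value in vestibular epithelial cells and both neuron-labelled libraries. Scn4a, the skeletal muscle channel, did not exceed 23.4 in any library. The brain channel listed under the older symbol Scn2a1, which the symbol rule does not take, had 70.3 and 28.5 in epithelial cells, 94.5 and 21.8 in neuron-labelled cells, and 135 and 143 in mesenchyme. Scn3a, Scn2a1, Scn1a, Scn9a and Scn7a lie side by side on chromosome 2 with gaps of 53.1, 503.3, 39.2 and 38.5 kb. The coding sequences of the first 4 are alike, and the sources used here do not give how shared reads were assigned, so their low values are uncertain.

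Among calcium channel pores, Cacna1d was above the neuron-labelled fraction in epithelial cells of both organs. It had 881 and 1217 in epithelial cells, 259 and 265 in neuron-labelled cells, 586 and 1162 in mesenchyme, and 41.8 and 270 in endothelium. Its ratio of epithelial over neuron-labelled cells was 3.40 in the cochlea and 4.59 in the vestibular organs, and the fitted log2 difference was 1.98 ± 0.70 (adjusted p = 0.17). The vestibular mesenchyme value lay between the 2 epithelial ones, so epithelial cells were not set apart from mesenchyme. Exons of Cacna1d overlap those of Chdh on the opposite strand in the annotation. Chdh had 1040 and 2294 in epithelial cells and at most 127 in the other libraries, and the sources used here do not give whether the counting used strand. The part of Chdh reads in the Cacna1d signal was not tested.

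Cacna1c, the L-type pore of heart and smooth muscle, did not separate the 2 fractions. It had 48.8 and 135 in epithelial cells, 64.9 and 178 in neuron-labelled cells, and its highest values in mesenchyme at 547.5 and 659.5. Epithelial cells were below the mean of mesenchyme and endothelium by an amount that did not pass the threshold (-1.76 ± 0.43 on the log2 scale, adjusted p = 0.069).

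Cacna1e (ENSMUSG00000004110, chr1:154390731-154884501) encodes the R-type pore, which contributes to calcium entry in many neurons. It had 28.8 and 63.6 in cochlear and vestibular epithelial cells, against 251.5 and 681 in neuron-labelled cells, 1407 and 6269 in mesenchyme, and 1181.5 and 2099 in endothelium. Both epithelial libraries were below every other library, and both neuron-labelled libraries below those of mesenchyme and endothelium. Epithelial cells were lower than neuron-labelled cells by 8.73-fold in the cochlea and 10.7-fold in the vestibular organs, with a fitted log2 difference of -3.24 ± 0.39 (limma adjusted p = 0.018). Against the mean of mesenchyme and endothelium, epithelial cells differed by -5.62 ± 0.33 (adjusted p = 0.0067) and neuron-labelled cells by -2.38 ± 0.33 (adjusted p = 0.046). The vestibular value was the higher one in all 4 cell types. Without the library labelled vestibular neurons the first difference was -3.21 (adjusted p = 0.13) and the second stayed called (adjusted p = 0.038), while that of neuron-labelled cells was -2.42 (adjusted p = 0.23). The last was lost in all 8 fits that left out 1 library (adjusted p 0.065 to 0.33), and the first also without the cochlear neuron-labelled library or either epithelial one (adjusted p 0.10 to 0.13 over these 4 fits).

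The presynaptic pores were low in these libraries. Cacna1a, the P/Q-type pore of central synapses, had 33.5 and 40.8 in epithelial cells and 157.5 and 20 in neuron-labelled cells. Cacna1b, the N-type pore of peripheral and central synapses, had 177 and 137 in epithelial cells, and 137 and 20 in neuron-labelled cells. For both genes the neuron-labelled value was at the floor in the vestibular library, as it was for 8 of the 24 neuronal markers.

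The T-type pores differed from each other. Cacna1g (chr11:94408391-94474198) had 65.8 and 139 in epithelial cells, 117 and 158.5 in neuron-labelled cells, 3231 and 3789 in mesenchyme, and 57.1 and 249 in endothelium. Its signal was thus concentrated in mesenchyme, and epithelial cells differed from the mean of mesenchyme and endothelium by -2.75 ± 0.48 on the log2 scale (limma adjusted p = 0.032; 0.082 to 0.22 without any 1 of the epithelial, neuron-labelled or mesenchyme libraries). Cacna1h had 776.5 and 335 in epithelial cells, 1682 and 867 in neuron-labelled cells, 594 and 785.5 in mesenchyme, and 134 and 122 in endothelium. Its neuron-labelled libraries were above all the others, but neither the difference from epithelial cells (-1.24 ± 0.48, adjusted p = 0.20) nor that from mesenchyme and endothelium (2.03 ± 0.41, adjusted p = 0.091) passed the threshold. Exons of Cacna1h overlap those of Tpsg1, which did not exceed 42.4 in any library.

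The beta subunits bind the pore inside the cell and carry it to the membrane, and all 4 genes had both epithelial libraries above both neuron-labelled ones. Cacnb3 (chr15:98630840-98644529) had 2673 and 1971 in epithelial cells, 551 and 410 in neuron-labelled cells, 1363 and 1455 in mesenchyme, and 105 and 281 in endothelium. The epithelial values were the highest of the 8, with a ratio over neuron-labelled cells of 4.85 in the cochlea and 4.81 in the vestibular organs. The fitted difference from neuron-labelled cells was 2.27 ± 0.53 on the log2 scale (adjusted p = 0.069). Cacnb3 was higher in epithelial cells than in the mean of mesenchyme and endothelium, by 2.22 ± 0.46 (limma adjusted p = 0.046; 0.10 to 0.29 without any 1 of the epithelial, neuron-labelled or mesenchyme libraries). Cacnb2, the beta subunit known from inner hair cells and heart, had 218 and 254 in epithelial cells, 57.1 and 118 in neuron-labelled cells, 102 and 209 in mesenchyme, and 28.6 and 93.1 in endothelium. Its epithelial values were above the other 6 libraries, with a log2 difference from neuron-labelled cells of 1.51 ± 0.45 (adjusted p = 0.12). Cacnb1, the skeletal muscle form, had 215 and 317 in epithelial cells, 166 and 75.4 in neuron-labelled cells, and 362 and 325 in mesenchyme. Cacnb4, a form of brain, was between 38.8 and 96.3 throughout, and its separation of the 2 fractions was small (68.1 and 59.3 in epithelial cells, 58.4 and 38.8 in neuron-labelled cells, adjusted p = 0.65).

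The alpha2delta subunits are extracellular proteins that raise channel density at synapses. Cacna2d2, the form known from hair cells and cerebellum, had 474 and 222 in epithelial cells, 47.8 and 27 in neuron-labelled cells, 513 and 623 in mesenchyme, and 20 and 58 in endothelium. Epithelial values were 9.92 times those of neuron-labelled cells in the cochlea and 8.24 times in the vestibular organs (log2 difference 3.14 ± 0.73, adjusted p = 0.070), and mesenchyme was higher still. Cacna2d1, the gabapentin-binding form, had 1251 and 1128 in epithelial cells, 1212 and 1785 in neuron-labelled cells, and 1374 and 991 in mesenchyme, so that these 3 cell types overlapped, and was lowest in endothelium at 45.6 and 421. Cacna2d3 had 35.4 and 54.8 in epithelial cells, 104 and 20 in neuron-labelled cells, and 338.5 and 359 in mesenchyme, with both endothelial libraries at the floor.

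Of the gamma genes, Cacng2, Cacng4, Cacng5, Cacng7 and Cacng8 are known mainly as regulators of AMPA-type glutamate receptors. Cacng7 had 807 and 516 in epithelial cells, 623 and 263.5 in neuron-labelled cells, 1834.5 and 1947 in mesenchyme, and 49 and 221 in endothelium. Epithelial and neuron-labelled values overlapped and mesenchyme was highest. Cacng4 had 84.6 and 23.9 in epithelial cells, 176.5 and 132 in neuron-labelled cells, and 260.4 and 195 in mesenchyme, with a log2 difference between the first 2 of -1.74 ± 0.45 (adjusted p = 0.088). Cacng2 was above the floor only in cochlear neuron-labelled cells (59.1), while Cacng5 and Cacng8 did not exceed 30.6 in any library. In all, 8 of the 31 genes stayed under 100 in every epithelial and neuron-labelled library, and 6 of these (Scn1a, Scn4a, Cacnb4, Cacng2, Cacng5 and Cacng8) in all 8 libraries.

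Against the mean of mesenchyme and endothelium, 2 of the 31 genes were called higher in epithelial cells (Cacnb3 and Scn11a; 6.71% of all genes were) and 2 lower (Cacna1e and Cacna1g; 6.25% of all genes), with 13% of all genes called in either direction. In neuron-labelled cells 1 was called higher (Scn3b, where 1.83% of all genes were) and 1 lower (Cacna1e, where 1.03% of all genes were called lower and 2.85% in either direction). These comparisons share libraries with each other and with that of epithelial and neuron-labelled cells. Without the vestibular endothelial library, 5 genes were called higher in epithelial cells, Cacna1d and Cacna2d1 among those added.

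Between cochlear and vestibular libraries, limma called 0 of the 15275 genes over the 4 cell types (0%). Of the 31 genes, 5 had an unadjusted p under 0.05, a threshold at which the share of all genes was not counted. Cacna1e, Cacna1c and Cacnb2 had the higher values in the vestibular libraries (log2 difference of cochlear minus vestibular -1.38, -1.25 and -0.98), and Scn9a and Cacng4 in the cochlear ones (1.09 and 0.84), each with an adjusted p of 0.63. Within the neuron-labelled fraction, 19 of the 31 genes were higher in the cochlear library and 8 in the vestibular one, while 46.9% of all genes were higher in the cochlear library. Of the neuronal marker genes 17 of 24 were higher in the cochlear library. Cacna1a, Cacna1b, Cacna2d3, Cacng2 and Cacng5 were at the floor in the vestibular neuron-labelled library and above it in the cochlear one. In vascular endothelium the imbalance ran the other way, with 8 genes higher in cochlear cells and 17 higher in vestibular cells. There 25.8% of the 31 genes were higher in cochlear cells, against 46.7% of all genes. For mesenchyme the counts were 12 and 15 (38.7%, against 45.9% of all genes), and for epithelial cells 15 and 11 (48.4%, against 51.2%). Each of these splits compares 1 library with 1 and carries no test. The part of neuron content in the neuron-labelled differences was not tested.

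Proteins that bind, anchor or regulate these channels were read from 2 lists. Of the 15 sodium channel partners, 1 was higher in epithelial than in neuron-labelled cells and 2 were lower, 20% in either direction where 10.2% of all genes were called (5.23% higher and 5% lower). Nedd4l, a ubiquitin ligase that removes sodium channels from the membrane, had 3624 and 1962 in epithelial cells, against 534 and 664 in neuron-labelled cells (log2 difference 2.16 ± 0.40, limma adjusted p = 0.043). Fgf12, an intracellular factor that modulates sodium channel inactivation, was at the floor in epithelial cells, with 366 and 121 in neuron-labelled cells (-3.33 ± 0.48, adjusted p = 0.024, floor-limited). Unc80, a subunit of the sodium leak channel complex, had 39.1 and 143 in epithelial cells and 809 and 1356 in neuron-labelled cells (-3.79 ± 0.71, adjusted p = 0.043). The other 12 did not pass the test, and the list's median log2 difference was -0.006, equal to that of all genes. With only the epithelial and neuron-labelled libraries no gene of the table was called, so the calls of these partners did not hold there.

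Of the 20 matched calcium channel partners out of 21, 2 were higher in epithelial cells and 2 lower, 10% in each direction beside the same 5.23% and 5% of all genes. Rims2 and Rims1 encode presynaptic scaffold proteins of the same family that tether calcium channels at release sites. Rims2 had 279 and 221 in epithelial cells and 64.8 and 59.6 in neuron-labelled cells (log2 difference 1.98 ± 0.31, limma adjusted p = 0.029). Rims1 was at the floor in epithelial cells, with 106 and 90.6 in neuron-labelled cells (-2.23 ± 0.45, adjusted p = 0.0499, floor-limited). The values of the paralogues thus lay on opposite sides of this comparison, the Rims1 call being just under the threshold. Rem2, a small GTP-binding protein that inhibits calcium channels through the beta subunit, had 137 and 135 in epithelial cells. It had 20.6 and 20 in neuron-labelled cells (2.69 ± 0.33, adjusted p = 0.019, floor-limited). Stac2, an adaptor of L-type channels, was at the floor in epithelial cells, with 132 and 56.5 in neuron-labelled cells (-2.06 ± 0.36, adjusted p = 0.037, floor-limited). The list's median log2 difference was -0.36, against -0.006 for all genes. The calls of the calcium channel partners were likewise lost with only the epithelial and neuron-labelled libraries.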

How the data were processed

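The deposited table holds 1 signal value per gene for each of 8 libraries. The submitters' processing notes name GRCm38 and TopHat 1.0.0. The authors deposited signal values that are identical after sorting in every library, each summing to 15931150. For the counting tool, strand setting and length correction, nothing is given in the sources used here. Labels and methods place the mice at postnatal day 0, while the results text of the study gives postnatal day 2 for the sorted cells; day 0 is used here.

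Cell type and organ were fitted as additive terms to log2(value + 1) of all 15275 genes and 8 libraries with limma 3.58.1 in R 4.3.3, with a mean-variance trend, 3 residual degrees of freedom, and p-values adjusted by Benjamini-Hochberg (threshold 0.05). Fold changes are on that scale and understate changes near the floor of 20, and ratios within an organ are of the deposited values and carry no test. The p-values measure how the difference between the 2 organs varied among cell types, not the spread between animals. Libraries have 1 sample per cell type and organ, and the labels do not say how many animals each holds.

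The model was also run on simulated data with normal noise, without the floor or the shared sorted values. That run cannot speak to genes at the floor, and no result here rests on it. Identifiers were matched to GENCODE vM21 (15030 of 15275, all 31 members), the source of coordinates and pore codons. Tables and figures were made with Python 3.11.15, pandas 2.3.3 and matplotlib 3.10.9. All 31 members entered the counts, and 2 of them are not reported here by name. Of the others, those of at least 100 in an epithelial or neuron-labelled library, or called in any comparison, are given with values, and of the partner lists the called genes. Members and lists were chosen with earlier results of these data known. Alternatives were a pseudocount of 20, a filter at 100, no trend, no organ term, only the epithelial and neuron-labelled libraries, median-of-ratios scaling, the floor subtracted, and each library left out. Other assays of the study were not analysed here.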

Additional observations from a re-analysis of the deposited data

Results flagged for a closer look

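For 3 genes the difference of epithelial minus neuron-labelled cells had opposite signs in the 2 organs, each from 1 library against 1. On the log2 scale Cacna1a differed by -2.20 in the cochlea and 0.99 in the vestibular organs, Cacna2d3 by -1.53 in the cochlea and 1.41 in the vestibular organs, and Cacna2d1 by 0.046 in the cochlea and -0.66 in the vestibular organs. No test was made of these contrasts between organs. Cacna1a and Cacna2d3 are both at the floor in the library labelled vestibular neurons.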

How the results depend on the processing

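The labels carry no replicate numbers; the organ term compares the cell types within organs, and the fit with no organ term is its unpaired counterpart. In epithelial minus neuron-labelled cells, 1 gene was called higher and 1 lower; with a pseudocount of 20 it was 1 and 3, with the filter at 100 it was 3 and 4, with no trend 1 and 2, with no organ term 3 and 1, with median-of-ratios scaling 3 and 2, and with the floor subtracted, an alternative chosen after seeing the data, 1 and 2. With only the epithelial and neuron-labelled libraries it was 0 and 0, and no gene of the table was called. The single gene lower without the organ term was Scn8a and not Cacna1e. The shares of all genes called moved as well, from 5.23% higher and 5% lower in the main fit. They were 8.11% and 7.21% with the filter, which left 25 of the 31 genes, and 7.19% and 5.66% with median-of-ratios scaling. With no organ term they were 5.62% and 5.47%, and with the floor subtracted 3.5% and 4.58%. With 1 library left out at a time, the counts ranged from 0 to 2 higher and from 0 to 1 lower. Scn11a was called in 12 of 15 alternatives (2.13 to 7.09 on the log2 scale, adjusted p 0.0025 to 0.16) and Cacna1e in 9 of 15 (-4.23 to -2.77, adjusted p 0.0045 to 0.16). Cacna1e was lost without either epithelial or either neuron-labelled library (adjusted p 0.10 to 0.13), and Scn11a without either neuron-labelled one.

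In epithelial cells against mesenchyme and endothelium, 2 genes were called higher and 2 lower; with no trend or with the floor subtracted 1 was higher, with no organ term 1 was lower, and with 1 library left out the counts ranged from 1 to 5 higher and from 1 to 2 lower. Scn11a and Cacna1e were called in all 14 alternatives, Cacnb3 and Cacna1g in 6 of 14. In neuron-labelled cells against the same 2 types, 1 gene was called in each direction; a pseudocount of 20 or no organ term left 0 lower, the filter at 100 gave 3 higher and 2 lower, the floor subtracted gave 0 and 0, and leaving out 1 library gave 0 to 1 higher and 0 to 0 lower, the 1 being Scn9a without vestibular endothelium (2.02, adjusted p = 0.045); Scn3b and Cacna1e lost this call in all 8 such fits. Scn3b was called there in 5 of 14 alternatives and Cacna1e in 3 of 14. Cochlear against vestibular libraries gave 0 calls throughout. In neuron-labelled cells against mesenchyme and endothelium, the filter at 100 called 3.65% of all genes higher and 2.36% lower. The main fit called 1.83% and 1.03% there. The causes of these changes in calls were not tested. No called difference changed sign; 11 of 459 values of uncalled differences between epithelial and neuron-labelled cells did, in 6 genes. Depth is unknown, so nothing can be said of values near the floor.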

Other observations

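The epithelial sodium channel genes are not voltage-gated and are outside the 31 genes, but were read for comparison after the values of the others were seen. Scnn1b, a subunit of the channel that absorbs sodium across tight epithelia, had 202 and 733.5 in cochlear and vestibular epithelial cells, with the floor of 20 in both neuron-labelled and both mesenchyme libraries. Scnn1g had 75.6 and 182 in epithelial cells, with the other 6 libraries at the floor. Scnn1a had 78.5 and 50.9 in epithelial cells, was at the floor in neuron-labelled cells and mesenchyme, and had 62.4 in cochlear endothelium. These are values from 1 library for each cell type and organ, without a test.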
